A study of Triticum aestivum with 6 samples.

Results

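The chlorophyll a-b binding protein genes of wheat (Triticum aestivum) are described here from the authors' comparison of ultrasound-treated with untreated seed material. A gene was taken where a deposited table described it with the words "Chlorophyll a-b binding" and where the measured transcript model and the described gene were the same. This gave 46 antenna genes among the 895 genes that the authors' pair of tables list. Both tables hold only genes with an adjusted p-value (FDR) under 0.05, so the antenna genes were selected on the same contrast that is described below, and their direction and size are given with no test. Of the 46 genes, 26 were in the authors' DESeq2 table only, 9 in the second table only and 11 in both.

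Per the labels, 3 leaf samples came from seedlings whose seeds were sonicated at 30 kHz and 70 W for 5 minutes, 4 cm from the ultrasound head, and 3 leaf samples came from seedlings of untreated seeds. All seeds were of the winter wheat breeding line SE15, held 13.6% water, were germinated in the dark at 20 °C in lots of 100 per group, and were sampled at day 7. Messenger RNA was sequenced after poly-T selection and random priming. The sources used here do not say whether the seedlings saw light before they were collected. They also do not say whether a group's samples were grown apart, and p-values may then measure technical spread only.

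The tables give statistics of 1 comparison, headed K1 and US1, and no value per library. Nor do they say which of the 3 libraries of each group entered it, so every fold, SE and interval below may rest on fewer than 3 against 3. Depth, expression level and the spread between the samples are therefore unknown, and the leaf label could not be checked against marker levels. The header does not name the numerator of the fold change. Genes are placed on the positive or negative side as deposited, and no side is called higher after treatment. Each log2 fold change is the authors' deposited value, and the standard error (SE) given with it was implied by that fold and its p-value under a Wald test. In bulk tissue, fewer leaf cells and less RNA per cell could not be told apart.

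Chlorophyll a-b binding proteins are nuclear-encoded membrane proteins of the chloroplast. They fold around chlorophyll and carotenoids to form the light-harvesting antennae of photosystem I and photosystem II, and pass absorbed energy to the reaction centres. In flowering plants their genes are classic light-induced genes, transcribed under phytochrome control, and the proteins accumulate only when chlorophyll is made, a synthesis that itself needs light. All 46 genes carried the same description, which does not say to which photosystem each protein belongs.

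The DESeq2 table of the authors held 37 antenna genes, and all 37 log2 fold changes were positive. The table as a whole held 441 positive and 420 negative genes, 1.12% of the 76618 tests implied by its FDR values on either side and 0.576% on the positive side. Because listing was the condition for membership, nothing about the antenna genes is read from these shares. The median log2 fold change of the 37 genes was 2.63, a 6.19-fold difference, and the values ran from 1.85 to 7.01. The other 404 positive genes had a median of 1.81 and a range from 0.97 to 8.57. The authors' FDR was under 0.01 for 35 of the 37 genes. Of all 441 positive listed genes, which include these, 169 were under 0.01, and they make up 0.221% of all tests. The 37 genes had to be listed, so their count is not set against the share of all tests. The difference from the other listed genes was not tested.

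**Figure D1:**
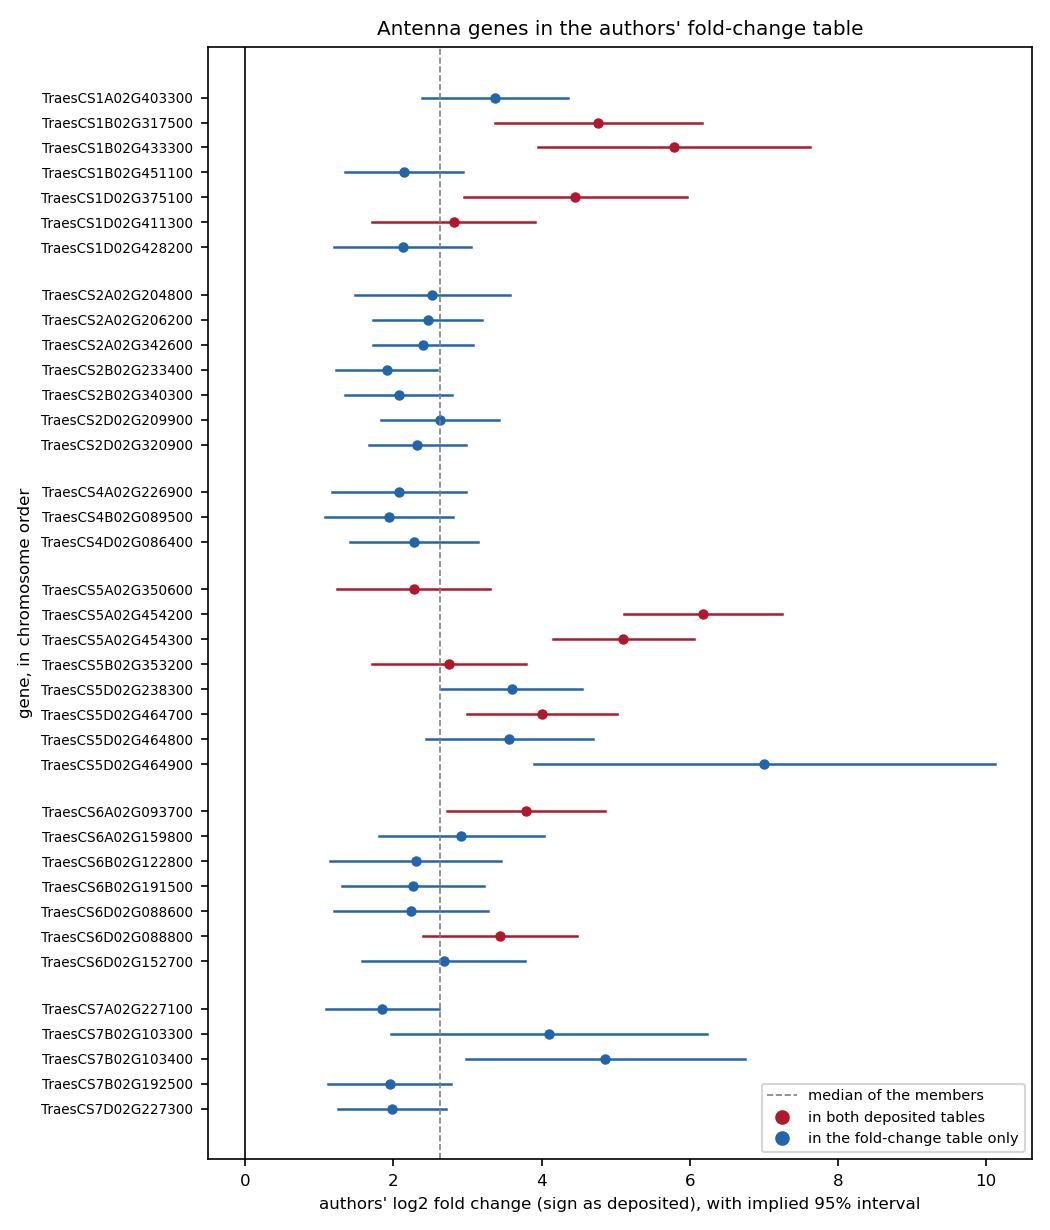
Authors' log2 fold change (x axis, sign as deposited) of the 37 antenna genes in the DESeq2 table, in chromosome order (y axis), with the implied 95% interval as a line and the members' median of 2.63 dashed. The genes of chromosome groups 2 and 4 sit between 1.91 and 2.63, and the widest interval is that of TraesCS5D02G464900.

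The listed folds of the antenna genes differed in size, which was not tested. Of the 37, 23 had a log2 fold change under 3, 5 lay between 3 and 4, and 9 exceeded 4. The implied 95% interval included the members' own median for 25 genes, lay wholly above it for 10 and wholly below it for 2. The genes come from a single comparison, so their errors are not independent. The same values also chose the genes, and an imprecise fold could be listed only if it was large. Median SE was 0.77 in the 9 genes over 4, beside 0.52 in all 37. The filter therefore bears on these counts, and no conclusion is drawn from them. The 2 genes below the median were TraesCS7A02G227100 at 1.85 (SE 0.39) and TraesCS2B02G233400 at 1.91 (SE 0.35). With TraesCS4B02G089500 at 1.94 (SE 0.44) and TraesCS7B02G192500 at 1.95 (SE 0.42) they had the smallest folds of the set.

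The 9 genes over 4 lay on chromosome groups 1, 5 and 7, and 6 of them had another listed antenna gene within 100 kb. TraesCS5A02G454200 (5A, 635407574 to 635408909, minus strand) had the lowest p-value of the whole table. Its log2 fold change was 6.18 (SE 0.54), with a DESeq2 adjusted p of 5.02e-25 in the authors' deposited table. The gene next to it, TraesCS5A02G454300, was second in the set by p-value, at 5.11 (SE 0.49). TraesCS1B02G433300 (1B, 657506674 to 657507474, plus strand) stood at 5.79 (SE 0.94), TraesCS1B02G317500 (1B, 542578994 to 542580037, minus strand) at 4.77 (SE 0.71) and TraesCS1D02G375100 (1D, 452268875 to 452270083, minus strand) at 4.45 (SE 0.77). The others were TraesCS7B02G103400 at 4.86 (SE 0.96), TraesCS7B02G103300 at 4.10 (SE 1.09), TraesCS5D02G464700 at 4.01 (SE 0.52) and TraesCS5D02G464900 at 7.01 (SE 1.58).

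The order of the antenna genes by size depended on the authors' shrinkage, which pulls imprecise folds toward 0. TraesCS5D02G464900 had the largest unshrunk fold of the 37 genes and the smallest shrunk fold, 1.18, so that 16.8% of its log2 value was kept. TraesCS7B02G103300 followed the same course, with a shrunk value of 1.18 and 28.8% kept. Over the set, a median of 66.1% was kept, and at most 83.0%, in TraesCS2D02G320900 (log2 fold change 2.32, SE 0.33). Both 5A neighbours led after shrinkage, TraesCS5A02G454200 at 3.97 and TraesCS5A02G454300 at 3.50, ahead of TraesCS5D02G464700 at 2.65 and TraesCS5D02G238300 at 2.49. The median of the shrunk values was 1.72 in the antenna genes, beside 1.27 over all 441 positive genes. Median implied SE was 0.52 in the antenna genes and 0.43 over all 861 listed genes.

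**Figure D2:**
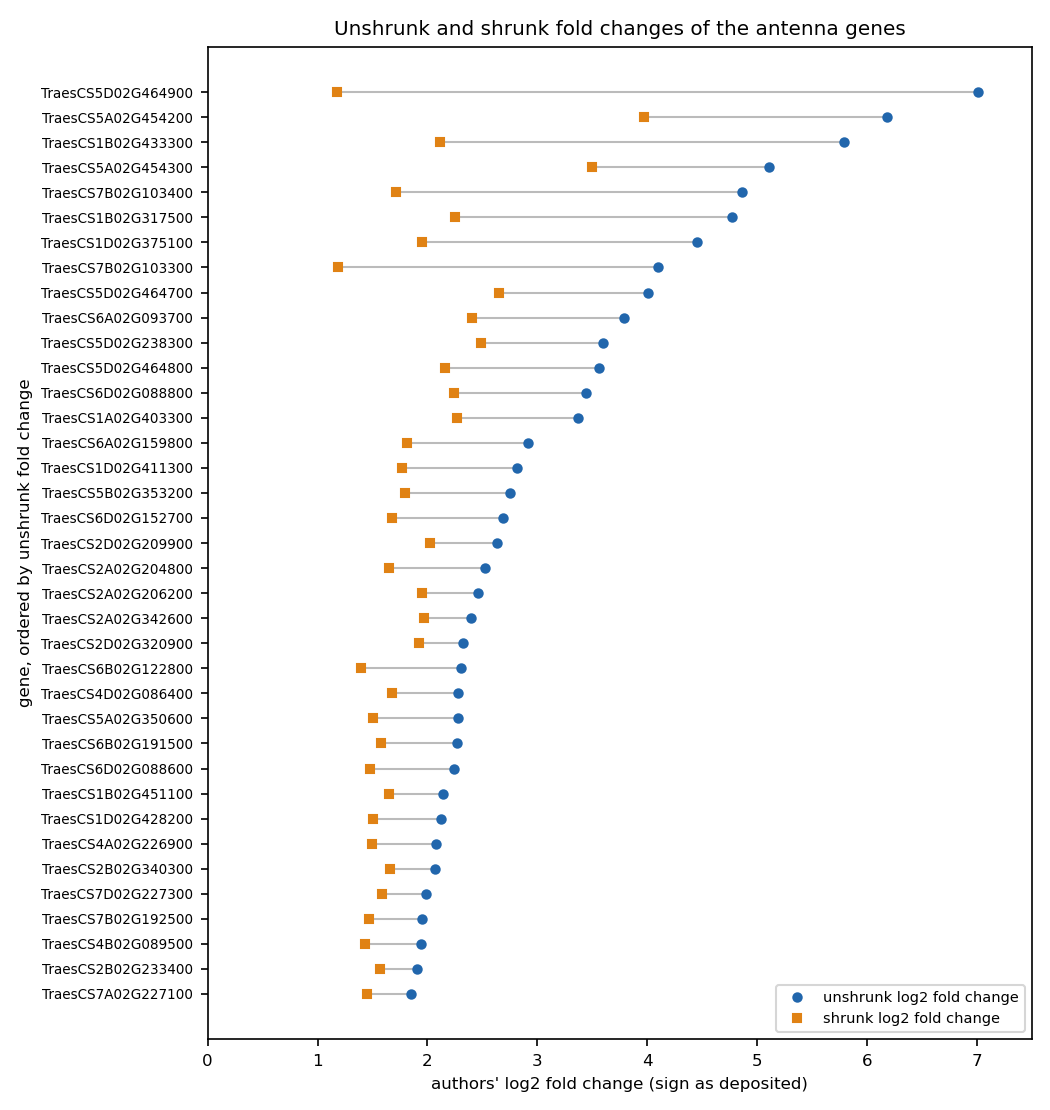
Authors' unshrunk (circles) and shrunk (squares) log2 fold change of the 37 antenna genes, ordered by the unshrunk value. TraesCS5D02G464900 is first by the circle at 7.01 and last by the square at 1.18, and TraesCS5A02G454200 keeps 3.97.

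The FDR threshold was not close for most of the set. The highest FDR values of the antenna genes in the DESeq2 table were 0.0229 for TraesCS7B02G103300, 0.0160 for TraesCS6B02G122800 (log2 fold change 2.30, SE 0.59, shrunk 1.40) and 0.00615 for TraesCS6D02G088600. In the second table, whose p-values were one-sided, the highest FDR, 0.0476, was shared by 3 antenna genes. They were TraesCS1B02G433300, TraesCS7A02G238400 and TraesCS7D02G199400. Antenna genes outside the threshold are not analysed here, so how many of the family were measured and not listed is unknown.

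Positions are as deposited, on a genome build that the sources used here do not name, and the annotated feature of every row is a gene. Of the 46 measured models 37 have a name that ends in E and a number, which may stand for an exon, and 9 are named for a transcript. The headers do not explain these endings. The 46 genes lay on 18 of the 21 wheat chromosomes. They occurred in 6 of the homoeologous chromosome groups, the sets of matching chromosomes from the A, B and D subgenomes, and none was on group 3, which carried 110 genes of the DESeq2 table. Group 5 held the most antenna genes with 12, followed by group 1 with 9, group 7 with 8, groups 2 and 6 with 7 each and group 4 with 3. By subgenome there were 15 genes on A, 14 on B and 17 on D, of which 11, 12 and 14 had a fold. The median log2 fold change of these was 2.53 on A, 2.28 on B and 2.75 on D. Values spanned 1.85 to 6.18 on the A subgenome, 1.91 to 5.79 on the B subgenome and 1.99 to 7.01 on the D subgenome, so the subgenomes overlapped over nearly their whole span.

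Over the chromosome groups the medians ran from 1.99 to 3.80, and the spread within a group varied. The 7 genes of group 2 kept within 1.91 and 2.63, and the 3 genes of group 4 within 1.94 and 2.28. None of these 10 genes was in the second table, and their median SE was 0.39. The 8 group 5 genes with a fold ran from 2.28 to 7.01 with a median of 3.80, and the 7 of group 1 from 2.13 to 5.79 with a median of 3.37. Group 6 had 7 genes between 2.24 and 3.79 (median 2.68). Group 7 was split, with TraesCS7A02G227100, TraesCS7B02G192500 and TraesCS7D02G227300 between 1.85 and 1.99 and the pair of 7B neighbours above 4. These differences between groups were not tested, because the same contrast chose the genes.

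Some antenna genes were annotated with the same UniProt protein entry, that is, several gene copies pointed to a single protein record. Among the 46 genes 38 entries occurred, of which 7 were shared by 15 genes. Each shared entry joined genes of a single chromosome group and of different subgenomes. For 6 shared entries the folds could be set side by side, and within an entry they differed by 0.02 to 0.34 on the log2 scale, less than the smallest implied SE of the genes in that entry. TraesCS2A02G342600, TraesCS2B02G340300 and TraesCS2D02G320900 had 2.40 (SE 0.34), 2.07 (SE 0.37) and 2.32 (SE 0.33). TraesCS1B02G451100 and TraesCS1D02G428200 had 2.14 (SE 0.41) and 2.13 (SE 0.47). TraesCS4B02G089500 and TraesCS4D02G086400 were the most apart, at 1.94 and 2.28 with an SE of 0.44 for each. The sources used here do not say how reads that match several copies were counted, so the separate values of such copies are uncertain. Whether shared reads made these folds alike was not tested.

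**Figure D3:**
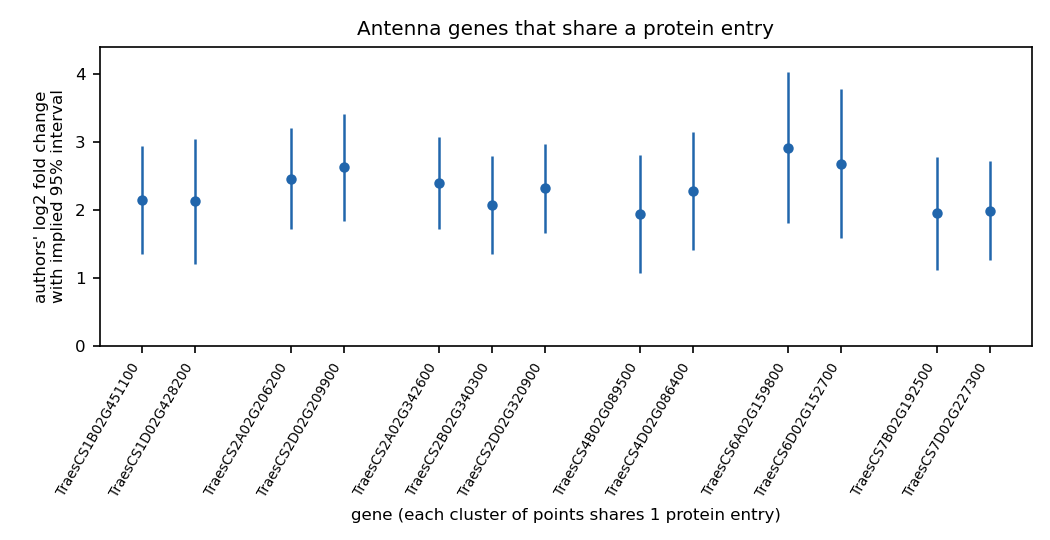
Authors' log2 fold change (y axis, sign as deposited) with implied 95% interval for the 13 antenna genes in the DESeq2 table that share a protein entry, clustered by entry. Within each cluster the points differ by at most 0.34 and the intervals overlap.

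Tandem neighbours, counted as listed antenna genes on the same chromosome with starts within 100 kb, numbered 11 genes in 5 groups. All 5 groups had their genes on a single strand, and of the 6 adjacent pairs 5 had consecutive gene numbers. An antenna gene that missed the FDR threshold could not be seen as a neighbour. The grouping therefore rests on the same contrast as the folds, and its difference was not tested. The 9 of these genes with a fold had a median log2 fold change of 4.10, beside 2.36 in the 28 genes without a listed neighbour. After shrinkage the medians were 2.16 and 1.68, so the gap was smaller. Both ranges overlapped, from 2.24 to 7.01 with a neighbour and from 1.85 to 5.79 without.

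Group 5 carried 3 of the 5 tandem groups, one on each subgenome. On 5A, TraesCS5A02G454200 and TraesCS5A02G454300 (635410444 to 635411662) were separated by 1534 bases and had the largest shrunk folds of the set. On 5D, TraesCS5D02G464700 (507771414 to 507772537) and TraesCS5D02G464800 (507774784 to 507775940) were 2246 bases apart and had folds of 4.01 and 3.56 (SE 0.58). The third 5D gene, TraesCS5D02G464900 (507835095 to 507835895), lay within 63.7 kb of the first. Its fold of 7.01 had an implied interval from 3.90 to 10.11, which overlaps the intervals of the first gene (3.00 to 5.02) and the second (2.44 to 4.69). On 5B, TraesCS5B02G463000 (638352711 to 638353511) and TraesCS5B02G463100 (638396836 to 638398001) appeared in the second table only, with Z-scores of -4.42 and -5.07.

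The other tandem groups lay on 6D and 7B. TraesCS6D02G088600 (53680362 to 53686837) and TraesCS6D02G088800 (53774158 to 53775233) stood at 2.24 and 3.44, with an SE of 0.53 for each, and their implied intervals overlapped. TraesCS7B02G103300 (118821298 to 118822449) and TraesCS7B02G103400 (118891357 to 118892479) had 4.10 and 4.86, with intervals reaching down to 1.97 and 2.99. The difference within each group was not tested. Beside the 5A pair, within 88.7 kb, 1 other gene was listed, TraesCS5A02G454500, which has no description and lay on the negative side at -0.99 (SE 0.28).

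**Figure D4:**
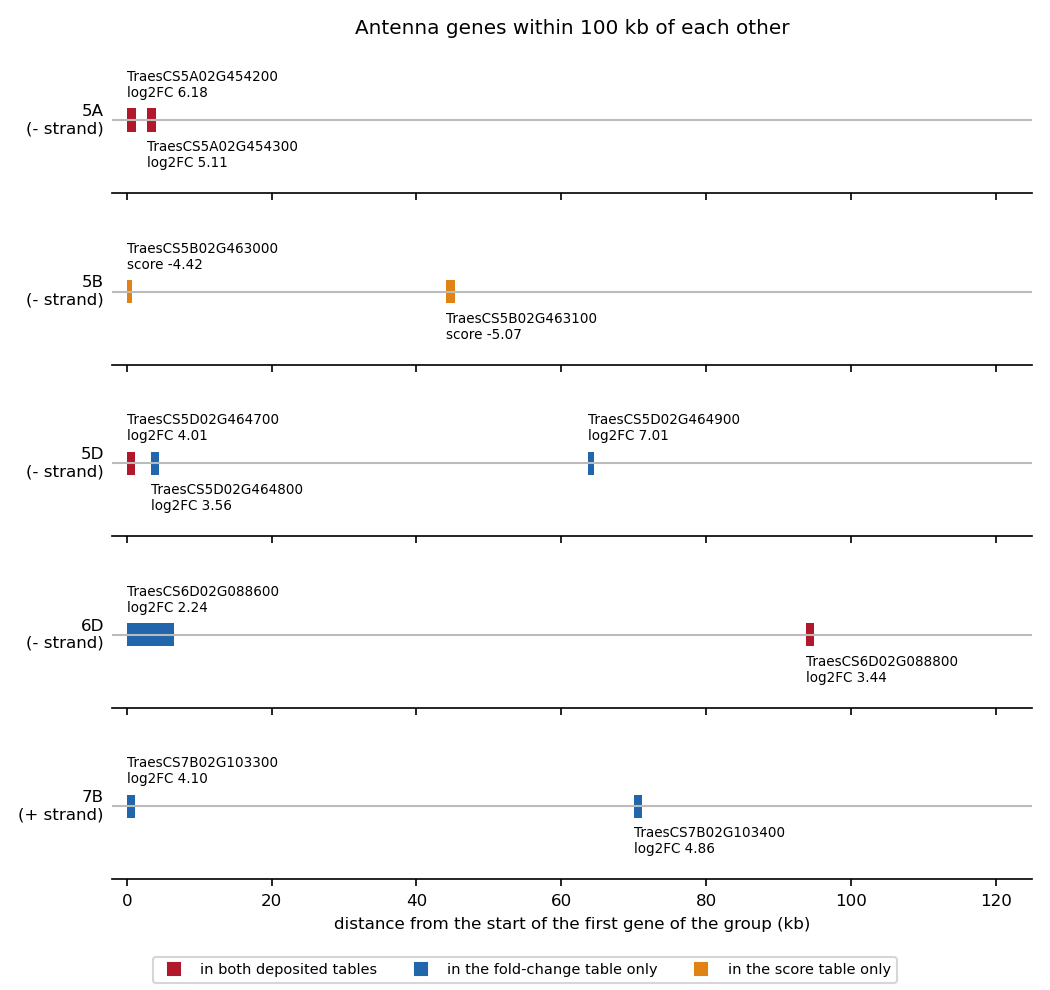
The 5 groups of antenna genes with starts within 100 kb, drawn to scale as distance from the first start (x axis, kb), with the authors' log2 fold change or, for the 5B genes, Z-score beside each gene. The 5A pair and the first 5D pair are the closest neighbours, and each group lies on a single strand.

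The authors' second deposited table, headed ID, gives a Z-score of the difference for 52 genes, 0.0433% of the 120099 tests its FDR values imply. Antenna genes made up 20 of the 52, and all 20 had a negative score. Of the 49 negative genes in the table, 0.0408% of the tests implied, 29 were not antenna genes, and the 3 positive genes were not either. Again the score chose the genes, so this is a description. The 11 antenna genes present in both tables were 29.7% of those in the DESeq2 table and 55.0% of those in the second. Of all listed genes, 18 were in both, out of 861 in the DESeq2 table and 52 in the second. In each of the 11, a positive log2 fold change stood beside a negative score, and over the 18 genes that both tables list the signs were opposite in 18. The headers do not say which group was subtracted from which, so opposite signs are not read as opposite directions.

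TraesCS5D02G329200 (5D, 421421468 to 421422863, plus strand) had the most extreme score of the second table, -10.02, and its p-value is listed at 0. TraesCS5A02G322500 (5A, 535011504 to 535013194, plus strand) came next at -6.49. These genes share a protein entry, and neither was in the DESeq2 table. Only 1 further gene of the table, not an antenna gene, had a score under -6. The other 18 antenna genes lay between -5.15 and -4.12. Those at -4.12 had an FDR of 0.0476, and weaker scores beyond the FDR threshold are not listed, so the threshold bounds this range. The median was -4.68 for the 9 genes of the second table only and -4.55 for the 11 genes of both tables.

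**Figure D5:**
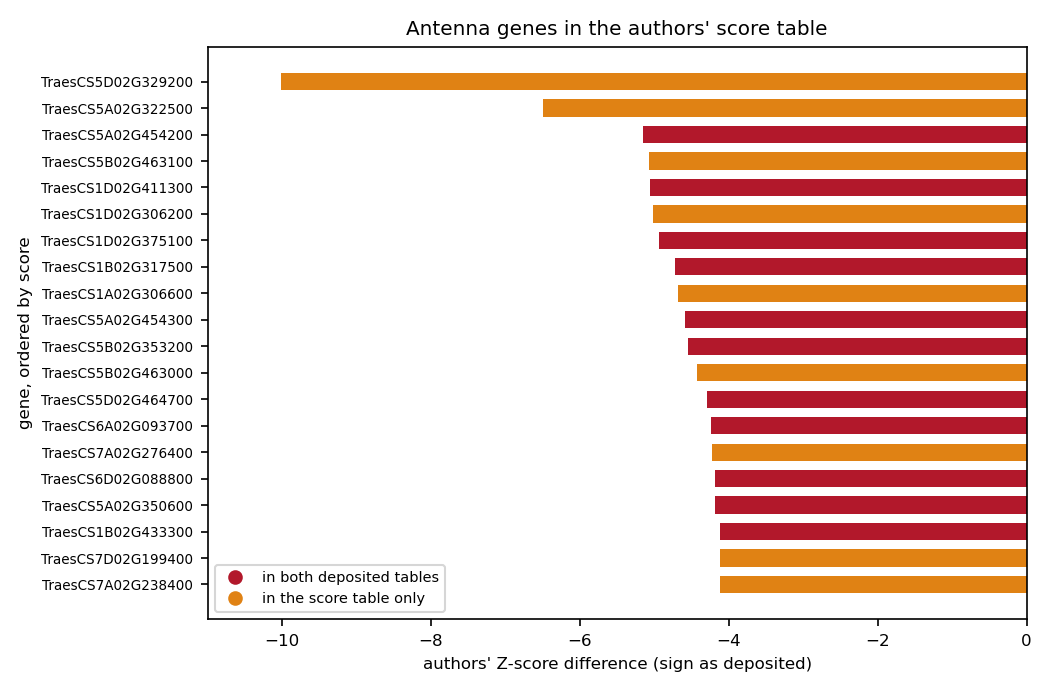
Authors' Z-score difference (x axis, sign as deposited) of the 20 antenna genes in the second table, ordered by score. TraesCS5D02G329200 at -10.02 and TraesCS5A02G322500 at -6.49 stand apart from the remaining 18 bars, which end between -5.15 and -4.12. Scores that missed the FDR threshold are not listed.

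The genes of both tables were spread over chromosome groups 1, 5 and 6. On group 1, TraesCS1D02G411300 (1D, 472560802 to 472562069, plus strand) had the most extreme score, -5.06, with a moderate log2 fold change of 2.81 (SE 0.56, shrunk 1.77). TraesCS1D02G375100 scored -4.94 and TraesCS1B02G317500 -4.73, while TraesCS1B02G433300, with the larger fold of 5.79, scored only -4.12. On group 5, TraesCS5A02G454200 scored -5.15 and TraesCS5A02G454300 -4.59. TraesCS5B02G353200 (5B, 532876586 to 532877808, plus strand) had -4.55 and a fold of 2.75 (SE 0.53, shrunk 1.80), and TraesCS5D02G464700 had -4.29. TraesCS5A02G350600 (5A, 553420891 to 553421688, plus strand) had the smallest fold of the 11, 2.28 (SE 0.53, shrunk 1.50), and a score of -4.19. On group 6, TraesCS6A02G093700 (6A, 61211829 to 61215961, plus strand) had a score of -4.24 and a fold of 3.79 (SE 0.55, shrunk 2.40), and TraesCS6D02G088800 a score of -4.19. The score thus did not rank these genes as the fold did.

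The median log2 fold change was 4.01 in the 11 genes of both tables and 2.31 in the 26 genes of the DESeq2 table only. The shrunk medians were 2.24 and 1.65. Presence in the second table was decided on the same contrast as the folds, so this difference is a description and was not tested. The remaining genes of the second table only were TraesCS1D02G306200 at -5.02, TraesCS1A02G306600 at -4.68, TraesCS7A02G276400 at -4.22, TraesCS7D02G199400 at -4.12 and TraesCS7A02G238400 at -4.12. A fold change for these 9 genes is not analysed here.

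The deposited positions also gave the span of each measured model, which the choice of members did not use. Whether that span is a whole gene or an exon is not stated. The spans ran from 798 to 6476 bases with a median of 1272, and the models of 5 genes on 1A, 1B, 5B, 5D and 7A had the same span of 801 bases. Of these 5, 3 had a fold, with values of 3.37 in TraesCS1A02G403300 (SE 0.50), 5.79 in TraesCS1B02G433300 and 7.01 in TraesCS5D02G464900. The last of these had the largest SE of the 37 antenna genes. Strand was nearly balanced, with 24 genes on the plus and 22 on the minus strand.

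A further 2 listed models bore the antenna description of a gene on the opposite strand and were left out of the 46. TraesCS1B02G451200 (1B, 668911879 to 668912613, minus strand) lies wholly within TraesCS1B02G451100 (668911604 to 668912857, plus strand), and their folds were 2.16 (SE 0.41) and 2.14 (SE 0.41). The library protocol does not say whether strand was kept. Without strand, reads of these overlapping genes could not be told apart. TraesCS1B02G388400 spans 46273 bases of 1B and had a fold of 2.85 (SE 0.67). The gene whose description it bore, TraesCS1B02G388300, was listed in neither table.

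Other genes of photosynthesis were counted from keyword lists over the descriptions, beside the antenna median of 2.63. Only listed genes could enter, and how many such genes were tested is unknown. The whole DESeq2 table held 441 positive and 420 negative genes. Shrunk medians were 1.13 for photosystem core, 0.98 for electron carriers and 1.43 for carbon fixation, beside 1.72 for the antenna genes. None of these differences was tested. The photosystem core list held 4 genes with a median of 1.49, and 4 of them were positive. Among them TraesCS5B02G256400, described as subunit 5 of photosystem I, had 2.00 (SE 0.41). TraesCS4A02G134100, at 1.21 (SE 0.32), is described as a photosystem II repair protein and was taken in by its keyword. Both medians of the list include it. Electron carriers numbered 5 positive and 1 negative with a median of 1.14, and the negative gene was the ferredoxin TraesCS3D02G366600 at -2.56 (SE 0.46). Carbon fixation genes, mostly the small chain of ribulose bisphosphate carboxylase, were positive in 12 of 12 cases with a median of 1.80, and 6 more had negative scores in the second table, between -6.06 and -4.16. The rest of the 12 were fructose-bisphosphate aldolase genes of 5A, 5B and 5D, whose description does not place them in the chloroplast. The second table held none of the photosystem core, electron carrier or chlorophyll synthesis lists.

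Genes on the list for chlorophyll synthesis, which supplies the pigment that antenna proteins bind, were positive in 5 cases and negative in 1. Their median was 1.52, or 1.18 after shrinkage. The negative one was a probable magnesium transporter taken in by its keyword, TraesCS6A02G189200 at -1.49 (SE 0.40). By its description it does not act in chlorophyll synthesis, yet both medians include it. The 5 positive genes ran from 1.28 to 2.82. Glutamyl-tRNA reductase, an early enzyme of the pathway, was listed from 1A, 1B and 1D, at 1.69 (SE 0.41), 2.82 (SE 0.37) and 2.07 (SE 0.41). A protein of the chloroplast signal recognition particle that guides antenna proteins to the thylakoid membrane was looked up after the data were seen. Its genes TraesCS4B02G326700, TraesCS4D02G323400 and TraesCS5A02G498700 had 2.17 (SE 0.56), 2.14 (SE 0.40) and 1.84 (SE 0.44). No listed gene matched the keywords for phytochromes, cryptochromes and other light receptors, and none matched those for seed storage and embryo proteins. Most genes of the DESeq2 table have no description, so a count of 0 does not show absence.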

How the data were processed

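Leaf messenger RNA of 3 ultrasound and 3 untreated wheat samples, grouped by title, was sequenced. Per the submitters' processing notes, STAR 2.7.10a, Trim Galore 0.6.7, FastQC 0.11.9 and DESeq2 are named, with no role or order. For the genome build and its annotation the sources used here give no name. Per the file headers, the authors deposited a DESeq2 p-value, an FDR and a log2 fold change, unshrunk and shrunk, for 861 genes. Per the file headers, the authors' second table holds a p-value, an FDR and a score (Z-score difference) for 52 genes, from a test that the header does not name. Neither holds values per library, so the planned edgeR or limma test was not run, and depth and counting precision are unknown.

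Computed from these were the implied SE (absolute log2 fold change over the normal deviate at that p-value, two-sided), 95% intervals, the number of tests (FDR times rank over p-value), distances and counts, with Python 3.11.15, pandas 2.3.3 and scipy 1.17.1. These steps were tested on simulated data. Any antenna gene could be named. Full values went to genes of both tables, to those with extreme folds or the highest FDR, and to groups of at least 3 tandem neighbours. Members and keyword lists were chosen with earlier results of these data known. Alternatives were a stricter FDR, shrunk folds, other distances, and counting 1 gene per group or entry. The RefSeq gene table given matched 0 of the 46 genes, so no sequence is shown. Positions are as deposited.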

Additional observations from a re-analysis of the deposited data

How the results depend on the processing

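The 37 positive antenna genes of the DESeq2 table numbered 35 at an FDR under 0.01, 32 with 1 gene per tandem group, 30 with 1 per protein entry (chosen after seeing the data) and 11 in both tables. These are subsets of positive genes, so their direction was fixed. Adding the models that carry another gene's description, which were positive too, gave 39. The median log2 fold change of 2.63 became 1.72 with shrunk values and 4.01 in the genes of both tables. Presence in both rests on the same contrast as the folds. Under the other 3 settings the median lay between 2.49 and 2.86. Of the 20 negative scores 8 had an FDR under 0.01, by the one-sided p-values of that table. The same count over all 52 genes of that table was not made, so no share stands beside it. The 11 tandem neighbours fell to 4 within 20 kb and numbered 11 within 1000 kb or within 10 gene numbers. No paired analysis was possible because the files hold no value per library. For the same reason no replicate was left out, and no other normalization or filter was run.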
